A study of Mus musculus with 192 samples.

Results

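The subject here is a set of 10 mouse genes that encode Toll-like receptors and their co-receptors: Tlr1, Tlr2, Tlr3, Tlr4, Tlr6, Tlr7, Tlr9, Tlr13, Cd14 and Ly96. They were taken by name from a table of unique molecular identifier (UMI) counts, in which each UMI stands for 1 captured cDNA molecule, and they make up 10 of its 23481 genes. The question was whether a microbial ligand changes the transcripts of its own receptor or of other receptors of the family. The libraries came from dendritic cells grown with GM-CSF from the bone marrow of female C57BL/6J mice aged 6 to 8 weeks. Wells of 100000 cells were left as Ctrl or exposed for 6 h to PAM, LPS (lipopolysaccharide), HMW, Zymosan (described in the labels as depleted), SeV, 3',3'-cGAMP (a cyclic dinucleotide, written cGAMP here) or CpGB, and total RNA was taken. The 64 groups were Ctrl, the 7 single ligands, all 21 pairs and all 35 triplets, with 3 libraries in each. The labels do not spell out PAM, HMW or SeV, state no doses and do not say whether the 3 libraries of a group came from separate cultures or mice, so that p-values measure the spread between these libraries. No group differs in genotype.

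Toll-like receptors are membrane proteins that recognise conserved microbial molecules and signal through the adaptors MyD88 and TRIF. TLR1, TLR2, TLR4 and TLR6 act at the cell surface, TLR2 as a partner of TLR1 or TLR6 in sensing lipopeptides, and TLR4 together with the LPS-binding protein MD-2, the product of Ly96. CD14 is a surface co-receptor that delivers LPS to TLR4 and lipopeptides to TLR2, while TLR3, TLR7, TLR9 and TLR13 sense nucleic acids in endosomes: double-stranded RNA, single-stranded RNA, CpG DNA and bacterial ribosomal RNA, respectively. STING, the receptor of cyclic dinucleotides, lies outside the family.

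Library totals ran from 46564 to 610234 UMIs with a median of 171616, and the Ctrl group was the shallowest, with 73431 ± 14389 UMIs (SD, n = 3). Levels are given as CPM, UMI counts scaled to a common library size after TMM normalisation, and 1 UMI was worth 13.9 CPM in Ctrl replicate 1. The 95% intervals given for ratios of counts are exact and cover counting error only. A gene was called higher or lower when edgeR's quasi-likelihood test gave an adjusted p under 0.05 over all 4720 genes tested and the log2 fold change was at least 1, or at least 0.5 for an effect averaged over many conditions. SE stands for the absolute log2 change divided by the square root of that test's F statistic, and was not estimated separately. Of the 10 genes, 8 passed the filter on low counts. Ly96, with 501 UMIs in 171 libraries, and Tlr9, with 7 UMIs in 7 libraries, did not. All comparisons with Ctrl share the same 3 Ctrl libraries, so that they are not independent of each other. In bulk samples, fewer cells of a type and less RNA per cell cannot be told apart. The summed level of 8 dendritic cell markers was 5876 to 5928 CPM in the Ctrl libraries, most of it from the MHC class II genes H2-Aa and H2-Ab1, with Zbtb46 at 0 there. That of 6 macrophage markers was 2701 to 2861 CPM, that of 8 neutrophil markers 586 to 873 CPM and that of 4 mast cell markers 0 to 37.4 CPM, while B cell and T or NK cell markers were at 0 in Ctrl.

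Across the 63 stimulated conditions Tlr2, Tlr3, Tlr7 and Cd14 were called higher in most, Tlr1 higher in a smaller share and Tlr13 lower in many, while Tlr4 and Tlr6 had few or no calls. Of 504 tests (8 genes in 63 conditions), 235 were called higher, against 14.3% over all genes tested, and 29 lower, against 9.03%. Tlr2 was called higher in 62 conditions, Tlr3 and Tlr7 in 51 each, Cd14 in 47 and Tlr1 in 24. Tlr13 was called lower in 26 conditions and Tlr4 in 2, and neither was called higher in any with all libraries in the fit. Tlr6 was called in no condition by edgeR, and its unadjusted p was under 0.05 in 1, PAM alone, where DESeq2, run on the single ligands, made no call either. Over all genes tested, 0.826% were called higher in 62 or more conditions, 7.31% in 51 or more, 9.17% in 47 or more and 16.2% in 24 or more, and 9.11% were called lower in 26 or more. Of the 56 tests of single ligands, 17 were called higher, against 8.70% over all genes, and 1 lower, against 4.95%.

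**Figure D1:**
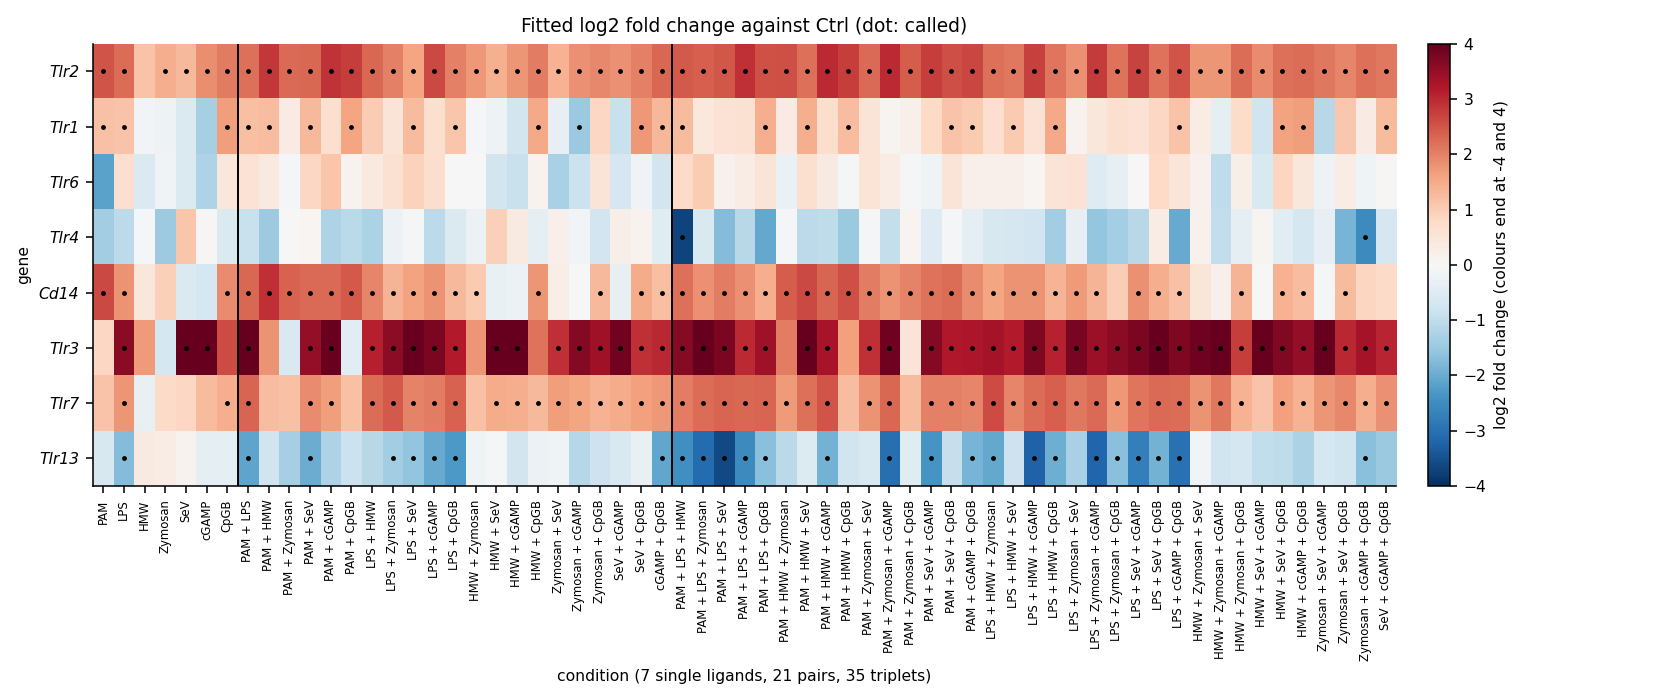
Fitted log2 fold change against Ctrl (colour, ending at -4 and 4) for the 8 tested genes (rows) in 7 single ligands, 21 pairs and 35 triplets (columns, set apart by vertical lines), with a dot where the change was called. Tlr2 is red with a dot in 62 of 63 columns, Tlr3 and Tlr7 in 51, and Tlr13 carries blue dots in 26, while Tlr6 has none.

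Tlr2, the shared chain of the lipopeptide receptors, rose with 6 of the 7 single ligands. It was at 13.9, 99.8 and 96.0 CPM in the 3 Ctrl libraries, the first value resting on 1 UMI. With PAM it reached 440, 478 and 372 CPM (log2 change 2.53, SE 0.29, adjusted p = 8.19e-14), and with LPS 409, 338 and 309 CPM (2.22, SE 0.30, adjusted p = 1.1e-10). All libraries of every single ligand lay above all Ctrl libraries. The rise was 2.08 with CpGB and 1.85 with cGAMP, 1.44 with Zymosan and 1.3 with SeV on the log2 scale. With HMW the libraries held 141, 175 and 163 CPM, a log2 fold change of 1.13 that missed the threshold (adjusted p = 0.074). Neighbouring ligands in the order PAM, LPS, CpGB, cGAMP, Zymosan, SeV and HMW overlapped in their libraries. Without Ctrl replicate 1 the Zymosan and SeV values were 1.03 (adjusted p = 0.0574) and 0.95 (adjusted p = 0.0582), no longer called.

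In combinations Tlr2 group means ran up to 552 CPM in the 21 pairs and from 258 to 593 CPM in the 35 triplets, and all 56 were called higher. The 22 groups with PAM lay between 346 and 593 CPM, with a median of 439 CPM, and the 42 without it between 69.9 and 528 CPM, with a median of 309.5 CPM.

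The Tlr2 gene lies at chr3:83836272-83841767 (mm10, minus strand). Its upstream sequence is shown because Tlr2 was called higher in 62 of 63 conditions. NF-kB, the transcription factor that Toll-like receptors activate, binds sites of a form searched here as GGGA, any 4 bases and CC. Of the 9 genes other than Cd14, which was not searched, 6 had entries in the RefSeq promoter table (GRCm38.p6). In the 250 bases before the start, on either strand, 17.6% of all 32851 promoter windows held these letters, and so did those of Tlr2 and Tlr3. The run below gives the 91 bases at chr3:83841768-83841858, minus strand, that lie before every annotated Tlr2 exon, with the match, which begins 172 bases before the RefSeq start, in capitals.
Tlr2: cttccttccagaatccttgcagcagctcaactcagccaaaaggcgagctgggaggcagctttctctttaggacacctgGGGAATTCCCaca
The match is a description of the letters and not a measured binding site.

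Tlr1, whose product pairs with TLR2 to sense triacylated lipopeptides, rose with 3 single ligands. Its Ctrl libraries were at 27.7, 112 and 67.2 CPM. With CpGB it reached 194, 245 and 226 CPM (log2 fold change 1.68, SE 0.37, adjusted p = 0.000123), above all Ctrl libraries. LPS gave 149, 161 and 152 CPM (1.13, SE 0.39, adjusted p = 0.0185), also above them. PAM gave 98.4, 186 and 183 CPM (1.17, SE 0.39, adjusted p = 0.0218), overlapping Ctrl in 1 library. The call for PAM was lost without Ctrl replicate 1 (0.89, adjusted p = 0.166), Ctrl replicate 3 (1.16, adjusted p = 0.0927), PAM replicate 2 (1.08, adjusted p = 0.0783) or PAM replicate 3 (1.06, adjusted p = 0.0803). The call for LPS was lost without Ctrl replicate 1 (0.87, adjusted p = 0.124) or Ctrl replicate 3 (1.15, adjusted p = 0.061).

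Tlr1 had its lowest single-ligand level with cGAMP, at 45.9, 35.1 and 6.14 CPM (log2 fold change -1.34, adjusted p = 0.0748). It was called lower there with RLE size factors, library size alone or DESeq2, and without replicate 1 of all groups or Ctrl replicate 1, with values from -1.91 to -1.47. The 24 conditions in which it was called higher all held PAM, LPS or CpGB, and none of the 22 conditions with Zymosan was among them. The single call lower was Zymosan + cGAMP, at a mean of 21.0 CPM. Tlr1 had 0 calls lower by edgeR without Ctrl replicate 2 or Ctrl replicate 3, and 2 without Ctrl replicate 1. The count of calls higher was 10 without Ctrl replicate 1 and 8 with scaling by library size alone.

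Tlr6 encodes the other partner of TLR2, which serves diacylated lipopeptides, and its levels were low. The Ctrl libraries held 13.9, 49.9 and 19.2 CPM, which is 1, 4 and 2 UMIs. PAM gave 13.1, 5.03 and 0 CPM, below all Ctrl libraries, with a ratio of counts of 0.207 (95% interval 0.0345 to 0.906) and a log2 fold change of -2.13 that missed the threshold (adjusted p = 0.122). CpGB gave 77.6, 25.5 and 27.7 CPM and LPS 14.9, 55.4 and 53.7 CPM, and both overlapped Ctrl. No single ligand passed the adjusted threshold for Tlr6 at this depth.

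Tlr1 and Tlr6 are neighbours on chromosome 5 (Tlr1 at chr5:64924679-64933563 and Tlr6 at chr5:64952031-64960097, mm10, both on the minus strand), and part of their coding sequence is identical. The longest stretch that their longest annotated transcripts share is 229 bases, coding in both, at chr5:64925537-64925765 in Tlr1 and chr5:64953828-64954056 in Tlr6. It is printed from Tlr1 because a read inside it fits both genes. Capitals mark the shared bases and lower case the 15 bases of Tlr1 on either side.
Tlr1: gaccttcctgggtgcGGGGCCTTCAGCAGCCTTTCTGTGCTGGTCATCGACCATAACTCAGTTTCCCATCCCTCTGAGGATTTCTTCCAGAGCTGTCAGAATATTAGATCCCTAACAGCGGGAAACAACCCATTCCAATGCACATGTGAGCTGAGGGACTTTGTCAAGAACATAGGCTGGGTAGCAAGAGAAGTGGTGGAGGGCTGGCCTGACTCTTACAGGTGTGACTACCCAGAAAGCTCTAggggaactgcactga
The stretch ends 858 bases before the end of the Tlr1 transcript and 1797 bases before that of Tlr6. How reads that match both genes were counted is not given in the sources used here, so their values are uncertain to that extent. No other pair among the 9 genes compared shared more than 18 bases in a row.

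**Figure D2:**
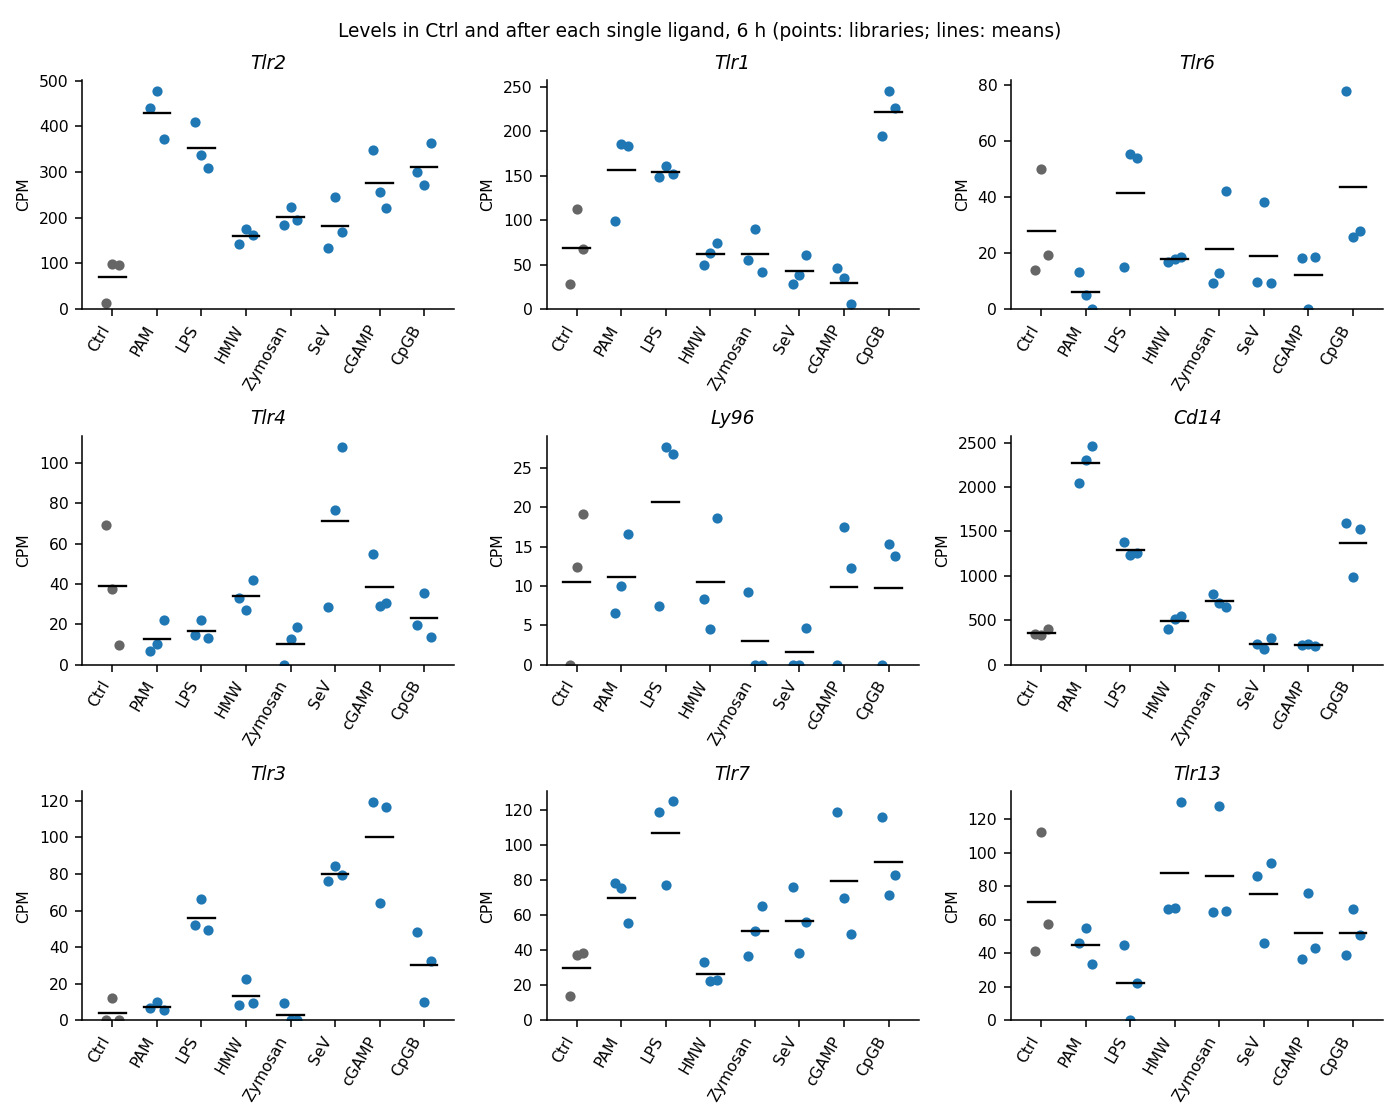
Level in CPM (vertical axis, from 0, its own scale in each panel) of 9 genes in the 3 libraries of Ctrl and of each single ligand (points), with the group mean (line). All 3 points of every ligand lie above Ctrl for Tlr2, while the Tlr6 and Ly96 points overlap widely and include libraries at 0.

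Cd14, the co-receptor for LPS and lipopeptides, showed 3 called rises under single ligands. The Ctrl libraries were at 346, 337 and 403 CPM. PAM gave 2047, 2303 and 2461 CPM (log2 fold change 2.63, SE 0.18, adjusted p = 2.28e-32). CpGB gave 1591, 985 and 1526 CPM (1.89, SE 0.19, adjusted p = 3.92e-18) and LPS 1385, 1236 and 1253 CPM (1.81, SE 0.19, adjusted p = 2.92e-17). The PAM libraries lay above those of CpGB and LPS, which overlapped each other and lay above all the rest. Zymosan gave 791, 691 and 653 CPM, above every Ctrl library, with a log2 fold change of 0.94 that passed the adjusted p (0.000194) and fell just under the fold threshold.

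With SeV and with cGAMP the Cd14 libraries lay below Ctrl. SeV gave 229, 176 and 305 CPM (log2 fold change -0.57, adjusted p = 0.077) and cGAMP 220, 234 and 215 CPM (-0.71, SE 0.24, adjusted p = 0.0198). All 6 libraries were below the lowest Ctrl library, and the cGAMP value passed the adjusted p without reaching the fold threshold. With libraries thinned to the lowest total Cd14 was called lower with SeV (-1.06). HMW gave 399, 511 and 553 CPM and overlapped Ctrl.

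Of the 47 conditions with Cd14 called higher, 46 held PAM, LPS or CpGB, the exception being HMW + Zymosan at 761 CPM. In the 15 groups without any of these 3 ligands the group means ran from 223 to 761 CPM with a median of 359 CPM. In the 33 groups with 1 of them they ran from 619 to 2754 CPM with a median of 1284 CPM, and in the 15 with 2 of them from 722 to 2173 CPM with a median of 1355 CPM. The triplet of all 3, PAM + LPS + CpGB, was at 1014 CPM. The groups with 2 or 3 of these ligands lay within the range of the groups with 1. PAM, LPS and CpGB are the ligands called alone, in the same groups, so this split is a description.

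Whether Cd14 was higher or lower with LPS or CpGB differed with the ligands already present. In the 11 matched backgrounds without PAM or CpGB, the group mean with LPS was higher in 11 of 11, with a median log2 ratio of 1.83 (0.39 to 2.53). In the 11 backgrounds with PAM or CpGB it was lower in 11 of 11, with a median of -0.43 (-0.98 to -0.03). With CpGB the mean was higher in 11 of 11 backgrounds without PAM or LPS (median 1.37) and lower in 11 of 11 with either (median -0.36). With PAM it was higher in all 22 backgrounds, by a median of 2.53 without LPS or CpGB and 0.51 with either. These splits were made after the averages had been seen and are given as a description. They share groups with each other, and the pair interactions given further on are the tests that bear on them.

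**Figure D3:**
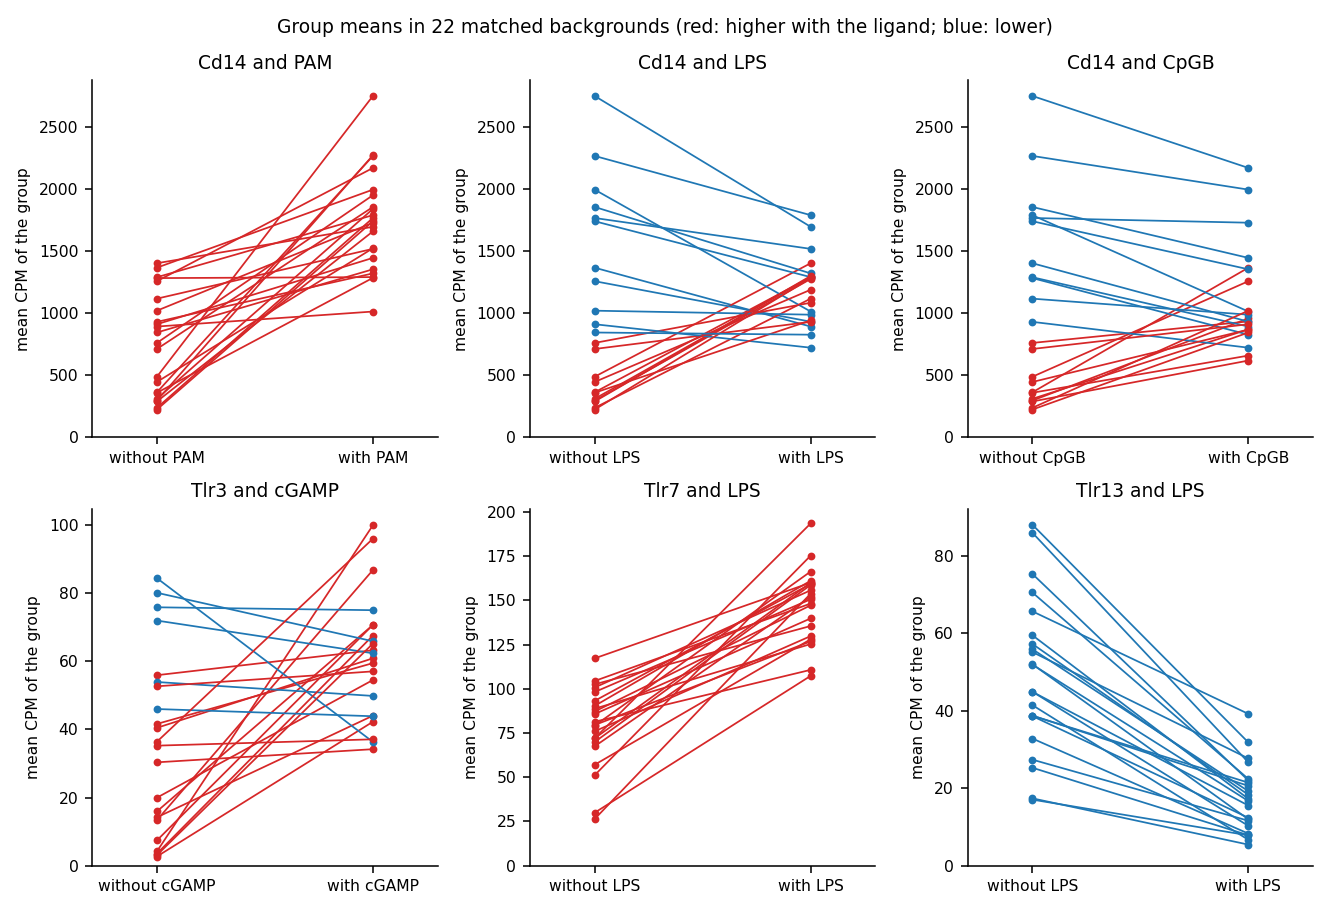
Mean CPM of a gene (vertical axis, from 0) in 22 matched pairs of groups that differ by 1 added ligand (horizontal axis, without and with), red where the mean is higher with the ligand and blue where it is lower. Cd14 is higher in 22 of 22 pairs with PAM but splits 11 to 11 with LPS and with CpGB, Tlr7 is higher in 22 of 22 with LPS and Tlr13 lower in 22 of 22.

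Tlr4, the LPS receptor itself (chr4:66827584-66930284, plus strand, mm10), was called with 0 of the single ligands by edgeR or DESeq2, and its unadjusted edgeR p was under 0.05 with 0 of them. The Ctrl libraries held 69.3, 37.4 and 9.60 CPM, or 5, 3 and 1 UMIs. LPS gave 14.9, 22.2 and 13.4 CPM (ratio of counts 0.477, 95% interval 0.168 to 1.36, adjusted p = 0.311). PAM gave 6.56, 10.05 and 22.2 CPM and Zymosan 0, 12.8 and 18.7 CPM. SeV gave 28.7, 76.7 and 108 CPM (log2 fold change 1.12, adjusted p = 0.184), with a ratio of counts of 2.29 whose 95% interval of 1.08 to 5.4 lay above 1. Each of these groups overlapped the wide range of Ctrl. The 2 calls lower were in triplets, PAM + LPS + HMW with 0, 6.56 and 0 CPM and Zymosan + cGAMP + CpGB with 8.69, 0 and 7.07 CPM. The count of calls lower was 0 without Ctrl replicate 1, 1 without Ctrl replicate 2 and 4 without Ctrl replicate 3. Without replicate 1 of all groups 0 conditions were called lower and 1 higher, and with library size alone 5 were called lower.

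Averaged over backgrounds, where 66 libraries with a ligand were set against 66 without, Tlr4 was lower with 3 ligands. The mean change was -0.81 with LPS (SE 0.16, adjusted p = 2.55e-06, lower in 17 of 22 backgrounds) and -0.70 with PAM (SE 0.15, adjusted p = 2.7e-05, lower in 18 of 22). With CpGB it was -0.51 (adjusted p = 0.00507, lower in 15 of 22), at the threshold of 0.5, and it was not called without replicate 2 of all groups (-0.41, adjusted p = 0.126) or without replicate 3 (-0.49, adjusted p = 0.0639). Summed macrophage markers were lower with these ligands too, though the listed genes did not all move one way. Their group means had a median of 1549 CPM with LPS and 2046 CPM without it, and were lower in 20 of 22 backgrounds with LPS and in 20 of 22 with PAM. Of the 7 listed macrophage genes 6 are in the table. Csf1r, the largest of them, was at 1718 CPM in Ctrl, against a mean of 810 CPM over the 64 groups. C1qb was at 775 CPM in Ctrl against 653 CPM and C1qa at 87.2 against 41.3 CPM. Fcgr1 went the other way, with 60.7 CPM in Ctrl against 302 CPM, and Mertk was at 0 in Ctrl against 7.21 CPM. Their part in the fall of Tlr4 was not tested.

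Ly96 (MD-2, chr1:16688051-16709611, plus strand, mm10) was sparse. The Ctrl libraries held 0, 1 and 2 UMIs, or 0, 12.5 and 19.2 CPM, and LPS gave 1, 5 and 6 UMIs, or 7.44, 27.7 and 26.9 CPM. The ratio of counts was 1.91 with a 95% interval of 0.514 to 10.5, and the groups overlapped. For the remaining single ligands the interval of the ratio also held 1. In a fit without the filter, the change averaged over backgrounds was 0.84 with cGAMP (adjusted p = 9.64e-05, higher in 19 of 22), 0.72 with PAM (adjusted p = 0.00185, 18 of 22), 0.60 with LPS (adjusted p = 0.0145, 16 of 22) and 0.57 with CpGB (adjusted p = 0.0375, 16 of 22). The averaged values with LPS were thus lower for Tlr4 and higher for Ly96 and Cd14, the last with the split over backgrounds given above.

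Tlr3, the sensor of double-stranded RNA and itself an interferon-induced gene, rose with cGAMP, SeV and LPS. Ctrl held 0, 1 and 0 UMIs, or 0, 12.5 and 0 CPM. cGAMP gave 119, 64.3 and 117 CPM, with a ratio of counts of 24.9 (95% interval 4.24 to 1010, adjusted p = 3.52e-06). SeV gave 76.5, 84.3 and 79.7 CPM (ratio 20.6, interval 3.47 to 836, adjusted p = 4.78e-05) and LPS 52.1, 66.5 and 49.2 CPM (ratio 14.3, interval 2.38 to 583, adjusted p = 0.00069). All 9 libraries lay above Ctrl, and with 1 UMI in Ctrl the size of the rise is known only within these wide intervals. CpGB gave 48.5, 10.2 and 32.3 CPM, overlapping Ctrl (ratio 6.96, interval 1.06 to 294, adjusted p = 0.0655). PAM, at 5.56 to 10.05 CPM, HMW, at 8.31 to 22.4 CPM, and Zymosan, at 0 to 9.20 CPM, overlapped Ctrl as well.

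All 49 conditions with LPS, SeV or cGAMP were called, and of the 14 without any of them only Zymosan + CpGB and HMW + Zymosan + CpGB were. Group means ran from 2.67 to 46.0 CPM in the 15 groups without the 3 ligands, with a median of 13.8 CPM. They ran from 32.6 to 100 CPM in the 33 groups with 1 of them and from 36.3 to 96.1 CPM in the 15 with 2, with medians of 54.5 and 62.3 CPM. The triplet LPS + SeV + cGAMP was at 62.4 CPM. The 3 ligands are those called alone, in the same groups, so this split is a description. Without Ctrl replicate 3, 37 conditions were called, and without replicate 3 of all groups 30.

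With cGAMP the Tlr3 mean was higher in 10 of 11 backgrounds without LPS or SeV, with a median log2 ratio of 2.70, and in 6 of 11 with either, with a median of 0.07. For SeV the counts were 10 of 11 and 5 of 11, and for LPS 11 of 11 and 4 of 11. As with Cd14, this split is a description. Summed plasmacytoid dendritic cell markers, most of them Tcf4, were at 146 to 178 CPM in the cGAMP libraries, 95.6 to 169 CPM with SeV and 134 to 188 CPM with LPS, against 41.6 to 62.4 CPM in Ctrl, and higher in 16, 13 and 17 of 22 backgrounds. Summed macrophage markers were lower with cGAMP in 22 of 22 backgrounds and with LPS in 20, and higher with SeV in 14. Siglech of the plasmacytoid list was at 7.82 CPM in Ctrl against a mean of 1.11 CPM over the 64 groups. Fcgr1 of the macrophage list was at 60.7 CPM in Ctrl against 302 CPM. The part of these markers in the rise of Tlr3 was not tested.

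The Tlr3 gene lies at chr8:45395665-45411080 (mm10, minus strand). Of its upstream letters only a 30-base window is shown, at chr8:45410572-45410601, because it holds a rarer subset of that form, GGGA, any base and TTTCC, that 0.356% of all promoter windows contained. The match, 211 bases before the RefSeq start and inside an exon of another annotated transcript, is in capitals.
Tlr3: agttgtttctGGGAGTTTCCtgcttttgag
A further match to the wider form begins 23 bases before the start. The core of the interferon-stimulated response element, searched as GAAA, any 2 bases and GAAA on either strand and held by 2.98% of all windows, was found in 1 of the 2 Tlr6 windows and in none of the windows of Tlr1, Tlr2, Tlr3, Tlr9 and Tlr13.

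Tlr7, the single-stranded RNA sensor (chrX:167304929-167330558, minus strand, mm10), rose with LPS and CpGB. Its Ctrl libraries were at 13.9, 37.4 and 38.4 CPM, or 1, 3 and 4 UMIs. LPS gave 119, 77.6 and 125 CPM (log2 change 1.76, SE 0.47, adjusted p = 0.0014) and CpGB 116, 71.5 and 83.0 CPM (1.44, SE 0.49, adjusted p = 0.0219), all above Ctrl. cGAMP, at 119, 70.1 and 49.1 CPM, and PAM, at 78.7, 75.4 and 55.6 CPM, were also wholly above Ctrl without passing the test (adjusted p = 0.0691 and 0.119). HMW gave 33.3, 22.4 and 23.2 CPM and overlapped Ctrl. The CpGB call was lost without Ctrl replicate 1 (1.25, adjusted p = 0.0905).

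All 22 conditions with LPS were called higher for Tlr7, against 29 of the 41 without it. The 51 calls became 38 without replicate 1 of all groups, 43 without replicate 3, 42 with library size alone or without Ctrl replicate 1, and 7 with libraries thinned to the lowest total. The group means with LPS ran from 107 to 194 CPM with a median of 151 CPM, and those without it from 26.3 to 184 CPM with a median of 89.5 CPM. With LPS the mean was higher in 22 of 22 backgrounds, by 0.96 on average on the log2 scale (SE 0.07, adjusted p = 7.22e-32). The highest group was LPS + HMW + Zymosan, with 175, 194 and 212 CPM. Summed plasmacytoid dendritic cell markers were higher with LPS too, with 134 to 188 CPM in the LPS libraries against 41.6 to 62.4 CPM in Ctrl, and over the backgrounds a median of 162 CPM with it and 98.3 CPM without it, higher in 17 of 22. Most of that sum was Tcf4, at 42.8 CPM in Ctrl against a mean of 127 CPM over the 64 groups, while Siglech was at 7.82 CPM in Ctrl against 1.11 CPM, and Ccr9, Ly6d and Klk1 were at 0 in Ctrl. Their part in the rise of Tlr7 was not tested.

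Tlr9, the receptor of CpG DNA, was barely detected. It had 7 UMIs in all libraries together, at most 1 in any, and none in Ctrl, in any single-ligand group or in any of the groups with CpGB. A floor of 3 UMIs over a group corresponds to 11.7 CPM in Ctrl and 5.82 CPM in CpGB, so that levels below these cannot be told from 0 and no fold is given. Whether CpGB changed Tlr9 was not detectable at this depth.

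Tlr13, the sensor of bacterial ribosomal RNA (chrX:106143204-106160493, plus strand, mm10), was called lower with LPS alone. Ctrl held 41.6, 112 and 57.6 CPM and LPS 44.7, 0 and 22.4 CPM. The log2 fold change was -1.74 (SE 0.60, adjusted p = 0.0184), although 1 LPS library lay within the Ctrl range. This single-ligand call was lost without Ctrl replicate 2 (-1.21, adjusted p = 0.239), LPS replicate 2 (-1.07, adjusted p = 0.2) or LPS replicate 3 (-1.73, adjusted p = 0.0559). It was also lost with no filter on low counts and without replicate 2 or replicate 3 of all groups. The other 6 ligands alone overlapped Ctrl and were not called.

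Tlr13 was called lower in 19 of the 22 conditions with LPS and in 7 of the 41 without it, and without Ctrl replicate 2 in 7 conditions of the 63 rather than 26. With LPS the mean was lower in 22 of 22 backgrounds, with an average change of -1.55 (SE 0.14, adjusted p = 6.61e-21), and with cGAMP also in 22 of 22, with a change of -0.99 (SE 0.14, adjusted p = 1.74e-10). With PAM it was lower in 19 of 22, with a change of -0.88 (SE 0.14, adjusted p = 7.06e-09). Group means had a median of 57.2 CPM without these 3 ligands, 32.8 CPM with 1 and 12.3 CPM with 2 of them. These are the 3 ligands with the most negative averages in the same groups, so the medians are a description. Macrophage markers summed to 1548 to 1868 CPM in the LPS libraries, against 2701 to 2861 CPM in Ctrl, and to a median of 1543 CPM in the groups with cGAMP and 1951 CPM in those without, lower in 22 of 22 backgrounds. Csf1r makes up most of the Ctrl sum, and Fcgr1 of the same list had a higher mean over the 64 groups than in Ctrl (302 against 60.7 CPM). Their part in the fall of Tlr13 was not tested.

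The 179 bases before the first annotated exon of Tlr13, at chrX:106143025-106143203 (plus strand), are printed to set a gene called lower beside Tlr2. They hold no match to the motifs searched, hence no capitals, which says only that those letters are not in this window.
Tlr13: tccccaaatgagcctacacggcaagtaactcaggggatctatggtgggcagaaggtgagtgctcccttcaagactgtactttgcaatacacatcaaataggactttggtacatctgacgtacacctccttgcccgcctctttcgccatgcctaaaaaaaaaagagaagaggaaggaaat

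Averaged over the 22 backgrounds, 12 of the 56 gene and ligand effects were called higher, against 8.39% of all genes tested, and 6 lower, against 5.53%. The split was 10 to 8 with RLE size factors and 8 to 10 when libraries were scaled by their size alone. With only the 15 pairs as backgrounds it was 7 to 8. With LPS 7 of the 8 genes were called, Tlr3, Tlr7, Tlr6, Cd14 and Tlr1 higher, against 14.9% of all genes, and Tlr13 and Tlr4 lower, against 11.0%. With PAM, against 6.53% of all genes higher and 5.89% lower, 3 of the 8 were called higher and 2 lower. With cGAMP, against 14.3% and 10.3%, they were 2 and 1, with CpGB, against 6.12% and 5.06%, 1 and 1, and with SeV, against 7.90% and 2.58%, 1 and 0. With Zymosan, against 8.58% and 3.81%, and HMW, against 0.297% and 0.0847%, none was called by edgeR. Under the fold threshold, Tlr1 (-0.48), Tlr2 (0.11) and Tlr7 (0.30) passed the adjusted p with Zymosan, and Tlr2 (0.19), Tlr3 (0.40) and Cd14 (0.15) with HMW. The share of all genes that passed the adjusted p alone was not counted, so these cannot be set against it. PAM moved Cd14 by 1.40 (SE 0.03, adjusted p = 7.85e-105) and Tlr2 by 0.81 (SE 0.04, adjusted p = 2.22e-47), both higher in 22 of 22 backgrounds. Summed dendritic cell markers had a median of 7195 CPM in the groups with PAM and 6506 CPM in those without it, higher in 20 of 22 backgrounds, and neutrophil markers one of 830 CPM and 770.3 CPM, higher in 16 of 22. With LPS these medians were 7021 against 6532 CPM (higher in 20 of 22) and 836 against 762 CPM (higher in 16 of 22). The genes of these sums did not all move one way. Over the 64 groups Itgax (325 against 421 CPM in Ctrl), Csf2ra (668 against 863) and Flt3 (3.02 against 4.62) had lower means than in Ctrl. The other dendritic cell genes had higher ones. Of the neutrophil genes in the table, Ltf (41.9 against 88.4 CPM) and Retnlg (11.8 against 45.1) were lower and the others higher. The part of these markers in the rises of Cd14 and Tlr2 was not tested. CpGB moved Tlr1 by 0.96 (SE 0.07, adjusted p = 1.11e-27), higher in 17 of 22. The Tlr1 mean was higher with CpGB in 11 of 11 backgrounds without PAM or LPS (median log2 ratio 1.78) and in 6 of 11 with either (median 0.16). For PAM the counts were 11 of 11 without LPS or CpGB and 4 of 11 with either, and for LPS 11 of 11 without PAM or CpGB and 4 of 11 with either, a description as for Cd14. With CpGB the summed dendritic cell markers had a median of 6843 CPM against 6506 CPM without it (higher in 19 of 22) and macrophage markers one of 1704 against 1952 CPM (lower in 20 of 22), and their part in the effect on Tlr1 was not tested. Tlr3 was higher with cGAMP (1.32, SE 0.12), SeV (1.2, SE 0.13) and LPS (1.17, SE 0.13). With LPS Tlr6 was higher by 0.70 (SE 0.14, adjusted p = 2.54e-06), higher in 18 of 22.

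Effects under the threshold also had a direction. Tlr1 averaged -0.49 with cGAMP (lower in 19 of 22 backgrounds, adjusted p = 1.06e-08) and -0.48 with Zymosan (lower in 18 of 22, adjusted p = 8.14e-08), opposite in sign to PAM, LPS and CpGB. With Zymosan the summed macrophage markers were lower in 21 of 22 backgrounds and neutrophil markers in 19 of 22, while dendritic cell markers were higher in 13 of 22. The part of these markers in the effect on Tlr1 was not tested. Cd14 averaged -0.37 with cGAMP (lower in 18 of 22) and -0.21 with SeV (lower in 17 of 22). Tlr4 averaged 0.37 with SeV (higher in 13 of 22, adjusted p = 0.0349) and -0.36 with cGAMP (lower in 14 of 22, adjusted p = 0.0351). The Tlr2 effect of cGAMP, 0.50, sat on the threshold and was 0.44 without Ctrl as a background, and that of LPS on Tlr1, 0.52, was 0.49 without it. HMW reached the threshold for none of the 8 genes, with values from -0.27 to 0.40.

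**Figure D4:**
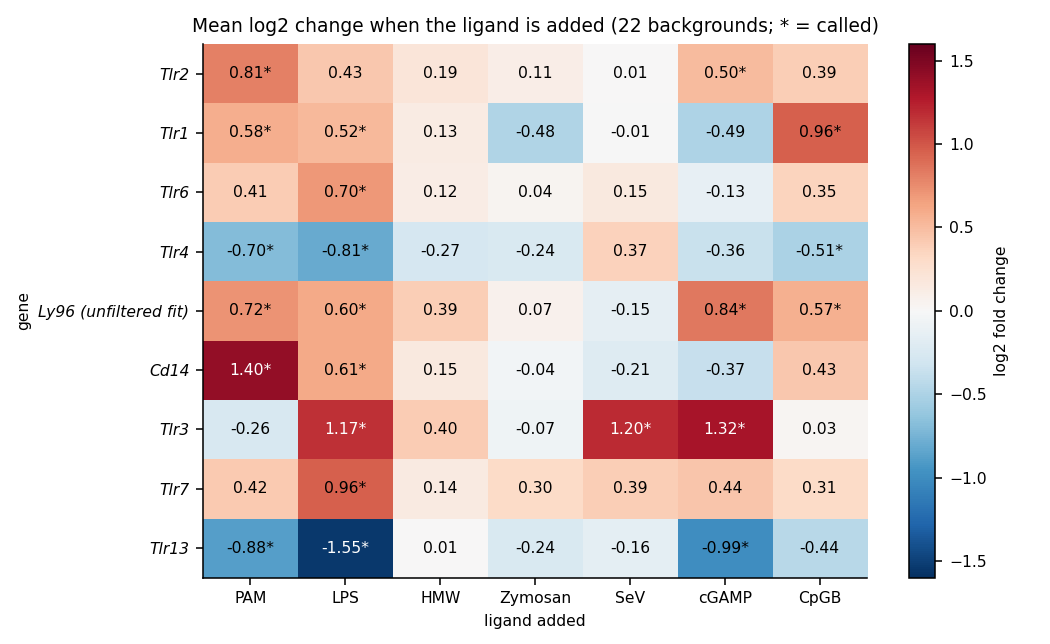
Mean log2 change (colour and printed value) in the level of 9 genes (rows) when a ligand (columns) was added to 22 backgrounds, with an asterisk for called effects and Ly96 taken from the fit without the filter. The LPS column has called values in both directions, from 1.17 for Tlr3 to -1.55 for Tlr13, and the HMW column has none.

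Called departures of a pair from the sum of its single ligands were mostly negative. The interaction is the log2 change of a pair minus the sum of the 2 single log2 changes, and 26 of 168 were called negative and 2 positive, against 3.50% and 1.08% over all genes tested. Without replicate 1, 2 or 3 of all groups the negative ones were 20, 21 and 18, and the positive ones 1, 0 and 1. With all libraries, Tlr2 had 14 of the negative ones. The Tlr2 interaction was -2.56 for PAM + LPS (SE 0.36, adjusted p = 1.17e-09) and -2.27 for LPS + CpGB (SE 0.37, adjusted p = 1.56e-07). Without Ctrl replicate 1, those of PAM + SeV, PAM + cGAMP, LPS + Zymosan, Zymosan + cGAMP, Zymosan + CpGB, SeV + cGAMP and SeV + CpGB were no longer called, with values from -1.24 to -0.98. Tlr1 had 1, LPS + CpGB (-1.69, SE 0.47, adjusted p = 0.00515). The largest rise of a pair in Tlr2 over its weaker ligand was PAM + HMW over HMW (535 against 159.6 CPM, log2 difference 1.69).

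For Cd14 the 6 negative interactions were those of all pairs among PAM, LPS, Zymosan and CpGB: LPS + CpGB at -2.41, PAM + LPS at -2.15, PAM + CpGB at -2.07, Zymosan + CpGB at -1.53, LPS + Zymosan at -1.41 and PAM + Zymosan at -1.23. Their adjusted p ran up to 8.45e-05, that of PAM + Zymosan. PAM + LPS held 1786, 1517 and 2074 CPM, below the mean of 2270 CPM with PAM alone. PAM + HMW held 2850, 2616 and 2794 CPM, the highest group of the series for this gene. With SeV + cGAMP the interaction was 0.96 (SE 0.32, adjusted p = 0.0393), with Cd14 at a mean of 288 CPM in the pair, and it was lost when any 1 Ctrl library was left out, with values from 0.78 to 0.93.

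For Tlr3, LPS + SeV, LPS + cGAMP, SeV + cGAMP, SeV + CpGB and cGAMP + CpGB had negative interactions, from -4.67 to -3.78. These fitted values depend on the single Ctrl UMI and on the prior count. SeV + CpGB was not called without Ctrl replicate 1 (-3.46, adjusted p = 0.06) or Ctrl replicate 3 (-3.23, adjusted p = 0.102), nor cGAMP + CpGB without Ctrl replicate 3 (-3.44, adjusted p = 0.0651). The comparison of a pair with its single ligands does not use Ctrl: cGAMP + CpGB, at 8.49, 52.3 and 41.8 CPM, was lower than cGAMP alone (log2 difference -1.41, SE 0.43, adjusted p = 0.016). The call was lost without replicate 1 (-0.93, adjusted p = 0.309) or replicate 3 (-1.37, adjusted p = 0.164) of all groups.

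Of 168 comparisons of a pair with both of its single ligands, 1 was above both, against 0.353% over all genes tested, and 0 were below both by edgeR, against 0.0504%. With no fold threshold 1 was below both, Cd14 in LPS + CpGB, at 893 CPM (-0.52 against LPS and -0.59 against CpGB, adjusted p over both = 0.0318). The pair above both was Tlr6 in PAM + cGAMP, with 70.6, 34.2 and 75.2 CPM, against means of 6.05 CPM with PAM and 12.3 CPM with cGAMP (log2 differences 3.23 and 2.31). Every library of the pair lay above those of both ligands, which held 8 UMIs in all. This call was lost without replicate 1, 2 or 3 of all groups and with library size alone, and could not be made with thinned libraries, where Tlr6 did not pass the filter. The interaction was 4.45 (SE 1.2, adjusted p = 0.0157) and was lost without Ctrl replicate 2 (3.71, adjusted p = 0.24). Against Ctrl the pair was not called (1.1, adjusted p = 0.19). Against 1 of its ligands a pair was called higher in 49 of 336 tests and lower in 13, against 4.86% and 2.52% over all genes, and 11 of the 13 were of Tlr13.

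**Figure D5:**
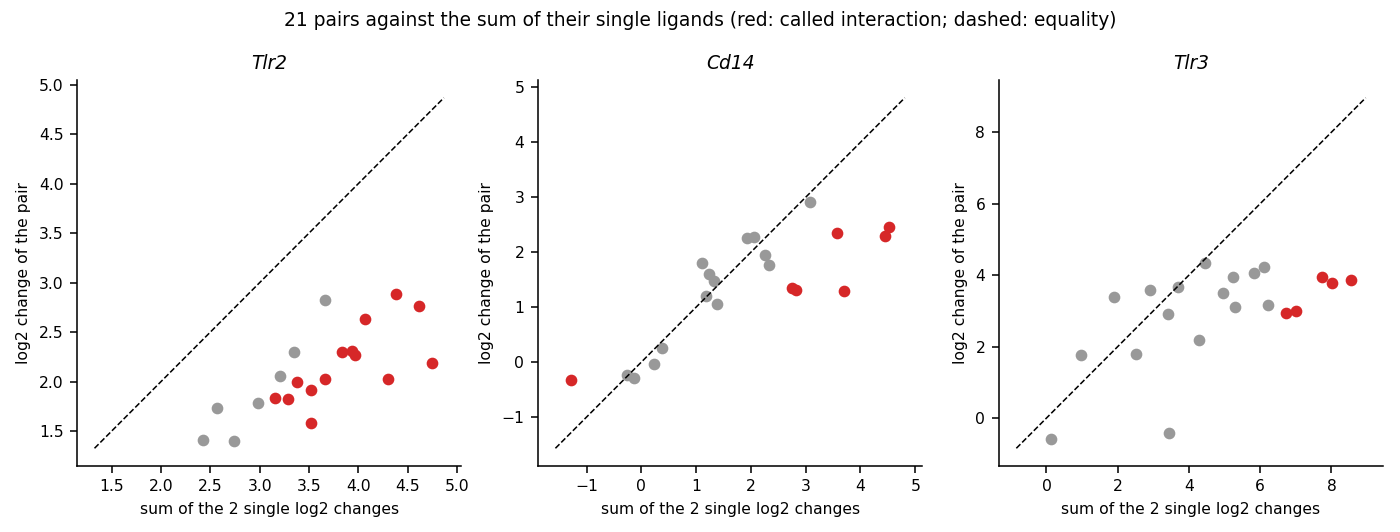
Log2 change of each of 21 pairs against Ctrl (vertical axis) plotted on the sum of the changes of its 2 single ligands (horizontal axis) for Tlr2, Cd14 and Tlr3, with called interactions in red and equality dashed. Tlr2 points all lie under the dashed line, 14 of them red, and Cd14 has 7 red points, of which SeV + cGAMP lies above the line.

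Other genes of the pathway were counted from lists of relatives, trafficking factors, adaptors and kinases, and inhibitors. Over all genes tested, the share called higher was 8.01% with PAM, 14.6% with LPS, 0.953% with HMW, 4.43% with Zymosan, 10.5% with SeV, 11.7% with cGAMP and 10.8% with CpGB. The share called lower was 5.89% with PAM, 9.60% with LPS, 0.0212% with HMW, 1.82% with Zymosan, 5.13% with SeV, 5.91% with cGAMP and 6.27% with CpGB, and the shares called in either direction were 13.9%, 24.2%, 0.975%, 6.25%, 15.6%, 17.6% and 17.0% in the same order. Cd36 and Unc93b1 are named in addition to the called genes and were chosen after their values were seen. Among 8 other family members and relatives, 3 were tested. Cd180 and its partner Ly86, which form an LPS-binding complex on antigen-presenting cells, rose with SeV (1.75 and 1.43 on the log2 scale) and with cGAMP (1.91 and 1.36), and Ly86 fell with PAM (-1.23, adjusted p = 0.0355). The scavenger receptor Cd36, a TLR2 co-receptor, was under the fold threshold with LPS (-0.89, adjusted p = 0.00038) and CpGB (-0.90, adjusted p = 0.000505). Of the 6 trafficking genes, all tested, Lgmn, an endosomal protease that processes nucleic acid sensors, fell with PAM (-1.62, adjusted p = 1.58e-05) and LPS (-1.07, adjusted p = 0.00236). Unc93b1, the chaperone of the endosomal receptors, was not called with any single ligand, with means from 428 to 734 CPM.

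Of 17 adaptors and kinases, 13 were tested, and 3 rose with each of PAM, LPS, SeV and cGAMP and 4 with CpGB. Myd88, the adaptor of nearly all the receptors, rose with these 5 ligands, by 1.06 to 1.82 on the log2 scale, from 76.5 CPM in Ctrl to 261 CPM with SeV, and so did Irak2, a kinase downstream of it, and Tab2. Chuk rose with HMW (ratio of counts 8.73, 95% interval 2.26 to 74.7) and CpGB (6.47, interval 1.62 to 56.2), with 2 UMIs in Ctrl. Traf3 fell with SeV (-2.29, adjusted p = 0.0382). The median change of the 13 was 0.91 with CpGB, 0.84 with PAM, 0.82 with LPS, 0.54 with SeV, 0.23 with cGAMP, 0.20 with HMW and -0.04 with Zymosan, against -0.09 to 0.03 over all genes.

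Of 6 inhibitors of the pathway, 4 were tested. Tnfaip3, a ubiquitin-editing inhibitor of NF-kB signalling, rose with PAM (1.87), LPS (1.44), cGAMP (1.29), CpGB (1.2) and Zymosan (1.17). Socs1, an inhibitor of cytokine signalling, rose with SeV to 383 CPM from 14.2 CPM in Ctrl (adjusted p = 5.09e-18), and also with PAM, LPS, cGAMP and CpGB. Irak3, an inhibitory kinase homologue, rose with PAM (ratio of counts 20.8, 95% interval 5.58 to 174), CpGB (16.2, interval 4.3 to 136), LPS and Zymosan, with 2 UMIs in Ctrl. The counts of rises were 3 of 4 with PAM, LPS and CpGB, 2 with Zymosan and cGAMP, 1 with SeV and 0 with HMW. The median change of the 4 ran from 0.54 with HMW to 2.18 with LPS, against -0.09 to 0.03 over all genes.

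Averaged over backgrounds, the called genes of the lists were the following. Among the relatives, Cd180 was higher with cGAMP (0.96, SE 0.10) and lower with PAM (-0.54, SE 0.11), as was Ly86 with PAM (-0.58, SE 0.07). Of the trafficking genes, Cnpy3, a co-chaperone of Toll-like receptors, was lower with LPS (-1.09, SE 0.18) and Zymosan (-0.68, SE 0.19). Among the adaptors and kinases, Ikbkb, a kinase that activates NF-kB, was higher with PAM (0.63) and LPS (0.70), Tab2 higher with LPS (0.65), Irak1 lower with LPS (-0.51), Ikbkg higher with Zymosan (0.58) and Ticam2, an adaptor of TLR4, lower with cGAMP (-0.84). Of the inhibitors, Tnfaip3 was higher with PAM, LPS and cGAMP (0.76 to 1.03), Socs1 with LPS (0.97) and SeV (1.07), and Tollip with Zymosan (0.79). Irak3 was higher with PAM (1.02) and CpGB (0.83) and lower with cGAMP (-0.68).

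The genes most like each member over the 64 group means of log2 CPM, among the 4493 genes that averaged 20 CPM or more, are given with Pearson's r as a description, with no test. The groups share ligands and Ctrl. Cd14 was followed by Cav1 (0.957), Lcn2 (0.931) and Il1b (0.926), and Tlr2 by Ptges (0.867), Cybb (0.861) and Nfkbia (0.859). Tlr3 was followed by Samhd1 (0.916), Stxbp3a (0.916) and Apobec3 (0.915), of which Samhd1 and Apobec3 encode antiviral restriction factors. For Tlr1 they were Blnk (0.916), Rassf4 (0.886) and Eif4g2 (0.88), for Tlr7 AA467197 (0.904), Cflar (0.889) and Car13 (0.878), and for Tlr13 Myo1f (0.854), Ctsd (0.845) and Txnip (0.843). For the sparser Tlr4 they were Msrb1 (0.656), Neurl3 (0.643) and Mbnl1 (0.631), and for Tlr6 Ell2 (0.633), Tarm1 (0.627) and Itga5 (0.615). Among the members, Tlr1 and Cd14 had an r of 0.712 and Tlr7 and Tlr13 one of -0.739.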

How the data were processed

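The values are deposited UMI counts per gene, 23481 genes in 192 libraries. Reads were aligned with BWA 0.7.15 and the build was mm10, per the submitters' processing notes. The annotation, the collapsing of UMIs and the treatment of reads that fit several genes are not given in the sources used here. Members and gene lists were chosen with earlier results of these data known.

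The authors' counts were filtered (4720 genes kept, holding 95.7% of UMIs), scaled by TMM and fitted in R 4.3.3 with edgeR 4.0.16 (quasi-likelihood, 1 coefficient per group, 128 residual degrees of freedom), with contrasts against Ctrl, averaged over 22 backgrounds, of pairs against single ligands, and for interactions. P-values were adjusted by Benjamini-Hochberg over all tested genes within a comparison. The genes named are the 10 members, up to 3 called genes of each pathway list per contrast (4 adaptors with CpGB, each also named for another ligand), and the 3 genes most like each tested member. Marker genes are named beside the sums they enter, and other genes where the text says so. Ly96 and Tlr9 came from a fit without the filter.

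The fit was tested on data simulated from it with known changes. Of 50 genes each, a true 2-fold rise with PAM against Ctrl was called in 18%. A 4-fold rise was called in 92% and a fall to 0.5 of the level in 12%. A missing call against Ctrl therefore does not show a lack of change. For the average effect of LPS, a true 2-fold rise was called in 100% and a 1.5-fold rise in 86%. Alternatives covered scaling, depth, filter, fold threshold, DESeq2 1.42.0, the replicate block and leaving out libraries. No pairing by replicate number was detected: same-numbered deviations correlated by 0.00828 on average. In log2 CPM over the tested genes, 119 of the 192 libraries correlated better with the libraries of some other group than with their own. The lowest correlation within a group was 0.817. The values of 1 listed marker gene are not reported here.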

Additional observations from a re-analysis of the deposited data

Results flagged for a closer look

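For 28 combinations of gene and pair, the effect of 1 ligand differed with and without the other by a test of the difference itself, the pair interaction in edgeR with an adjusted p under 0.05, given as log2 values. For Tlr1 the interaction was -1.69 for LPS + CpGB. For Tlr2 the interaction was -2.56 for PAM + LPS, -1.71 for PAM + Zymosan, -1.54 for PAM + SeV, -1.5 for PAM + cGAMP, -1.85 for PAM + CpGB, -1.63 for LPS + Zymosan, -1.94 for LPS + SeV, -1.44 for LPS + cGAMP, -2.27 for LPS + CpGB, -1.48 for Zymosan + cGAMP, -1.61 for Zymosan + CpGB, -1.32 for SeV + cGAMP, -1.38 for SeV + CpGB and -1.62 for cGAMP + CpGB. For Tlr3 the interaction was -3.78 for LPS + SeV, -4.25 for LPS + cGAMP, -4.67 for SeV + cGAMP, -3.8 for SeV + CpGB and -4 for cGAMP + CpGB. For Tlr6 a positive interaction was found, 4.45 for PAM + cGAMP. For Cd14 the interaction was -2.15 for PAM + LPS, -1.23 for PAM + Zymosan, -2.07 for PAM + CpGB, -1.41 for LPS + Zymosan, -2.41 for LPS + CpGB and -1.53 for Zymosan + CpGB. For Cd14 a positive interaction was found, 0.96 for SeV + cGAMP. All use the same 3 Ctrl libraries, and 12 of the 28 were called under all alternatives that tested their gene. Thinned libraries did not test Tlr3 and Tlr6.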

How the results depend on the processing

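With the replicate number as a block the counts of calls were 17 higher and 1 lower for single ligands, 235 and 29 over all conditions, 11 and 6 for average effects, and 2 positive and 26 negative interactions, so that 1 call changed, the effect of cGAMP on Tlr2 at the threshold. No call turned its direction. Called under all alternatives that tested their gene were 11 of 18 single-ligand results, 135 of 246 for pairs and triplets and 12 of 18 average effects. So were 12 of 28 interactions and 21 of 62 comparisons of a pair with 1 ligand. Only 4 of the 8 genes, Tlr1, Tlr2, Tlr7 and Cd14, passed the filter with thinned libraries. Calls of Tlr3, Tlr4, Tlr6 and Tlr13 were therefore not checked at that depth. With libraries thinned to the lowest total, where fewer genes pass the filter, the counts were 10 higher and 1 lower for single ligands, the last of Cd14 with SeV, 117 higher and 1 lower over all conditions, 4 higher and 2 lower for average effects, 1 positive and 13 negative interactions, and 0 pairs above both ligands. Other than that, single-ligand calls lower were 2 with RLE, library size alone, DESeq2 or no fold threshold, and 0 with no filter or only the ligand and Ctrl libraries. With no filter there were 17 calls lower over all conditions and 1 positive interaction. Average effects gave 10 lower and pairs 0 above both with library size alone, 7 higher with only the 15 pairs as backgrounds, and 27 higher and 12 lower with no fold threshold, where 1 pair was below both. Leaving out replicates gave from 0 to 2 single-ligand calls lower, from 8 to 28 calls lower over all conditions, from 0 to 1 positive interactions and 0 pairs above both. The cause of these shifts was not tested, other than the smaller number of genes or libraries. The median change of all genes moved from -0.03 to -0.25 for single ligands with library size alone. Depth in Ctrl limits Tlr3, Tlr4, Tlr6, Tlr7, Tlr9 and Ly96.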
